A study of Sus scrofa with 18 samples.

Results

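The common distal H3K27ac regions of the pig myometrium were the peaks of the GD15M_CM H3K27ac list on chromosomes 1 to 18 and X that overlapped a peak in both other H3K27ac lists by at least 1 bp, overlapped no H3K4me3 peak of any group, and lay more than 10 kb from both ends of every RefSeq gene. Of the 79877 peaks of that list, 9496 (11.9%) met the rule. The regions were thus chosen by measured values, the peaks of all 6 lists, so the presence of H3K27ac in each group and the absence of H3K4me3 were given by the choice, and their values in the H3K27ac lists are given as a description with no test.

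The profiles came from Yorkshire gilts on day 15 of pregnancy (GD) or on day 15 of the estrous cycle (CD). The endometrium was cut away from the mesometrial side (M), and the circular muscle (CM) and longitudinal muscle (LM) were separated, which gave GD15M_CM, GD15M_LM and CD15M_CM with 2 gilts each. Each group was profiled by CUT&Tag, in which an antibody guides a transposase to marked chromatin, for H3K27ac, H3K4me3 and an IgG control (18 libraries). Both gilts were pooled before peaks were called, so there was no value per gilt, no replicate error and no test, and longitudinal muscle of cyclic gilts was not analysed here. All groups were whole muscle layers, and fewer cells of a type and less of the mark per cell cannot be told apart.

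H3K27ac is the acetylation of lysine on histone H3 found at active promoters and active enhancers, and H3K4me3 is the methylation typical of promoters. Enhancers are stretches of DNA that bind transcription factors and raise the transcription of a gene from a distance, often from inside an intron of the gene or of its neighbour. In smooth muscle, SRF with its cofactor myocardin, MEF2, TEAD and AP-1 factors are known to work through such elements. H3K4me1, the other usual mark of enhancers, was not measured, so the regions are called distal H3K27ac regions and not enhancers.

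The rule removed peaks in 4 steps. Of the 78855 peaks on chromosomes 1 to 18 and X, 38708 overlapped a peak in both other H3K27ac lists, 14683 of these overlapped no H3K4me3 peak, and 9496 of these lay more than 10 kb from gene ends. The steps left out 4237 common distal peaks that carried H3K4me3, 5187 common peaks without H3K4me3 within 10 kb of a gene end, and 18799 distal peaks without H3K4me3 that were missing from at least 1 other list. Just inside the limit were a region 10001 bp from LOC110256743 (fold enrichment 3.44 in GD15M_CM, 4.80 in GD15M_LM and 2.69 in CD15M_CM) and a region 10002 bp from an end of RAB3IL1 (2.62, 4.59 and 2.70). Just outside were a peak 10000 bp from LOC110261743 (5.17, 4.28 and 4.68) and a peak 9998 bp from PRKCE (3.91, 3.53 and 4.85). Values on both sides of the limit lay in the same range.

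The regions were mostly short peaks of moderate strength. The fold enrichment, the ratio of signal over background written by the peak caller, had a median of 3.41 in GD15M_CM (quartiles 2.86 and 4.11, highest 8.76). The highest overlapping peak had a median fold enrichment of 3.86 in GD15M_LM (quartiles 3.20 and 4.66, highest 11.6). It was 3.89 in CD15M_CM (quartiles 3.19 and 4.71, highest 9.61). The region with the highest value in GD15M_CM lay in PDLIM5, which encodes a protein of the actin cytoskeleton. Few regions were strong everywhere: 71 of 9496 (0.748%) had a −log10 p of at least 10 and a fold enrichment of at least 5 in all 3 H3K27ac lists. The same share was not counted over all common peaks, so it does not set the regions apart from them.

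Their median length was 568 bp in GD15M_CM (95% interval 558 to 578, from 200 to 7407 bp). The overlapping peak of highest fold enrichment had a median length of 666 bp in GD15M_LM. In CD15M_CM the median was 1007 bp, and the peak was longer than the GD15M_CM peak for 74.3% of the regions. Longer regions were stronger, from a median fold enrichment of 3.08 in the 1653 regions of up to 300 bp to 4.18 in the 458 regions over 2000 bp (GD15M_CM). The 3 longest lay in CTBP2 (7407 bp, fold enrichment 3.45), HDAC7 (6473 bp, 3.38) and JAZF1 (5822 bp, 5.997), which encode a corepressor, a histone deacetylase and a zinc finger protein. The first and second of these ranked near the middle of the list by fold enrichment, at percentiles of 49.1 and 45.1.

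Some classes of peaks left out by the rule were longer and stronger, and others were alike. Common distal peaks that carried H3K4me3 had a median length of 1052 bp and a median fold enrichment of 4.06, and common peaks near gene ends with H3K4me3 had 1334 bp and 4.32 (all values in GD15M_CM). Distal peaks without H3K4me3 that were present in GD15M_CM alone (n = 11110) were shorter, at 324 bp, with a fold enrichment of 3.32. Common peaks near gene ends without H3K4me3 were close to the regions, at 570 bp and 3.21, and distal peaks in GD15M_CM and CD15M_CM but not in GD15M_LM had 417 bp and 3.40. A longer peak can more easily overlap a peak of another list, and how far the rule set these lengths was not tested.

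A region was not always a separate peak in each group. The 9496 regions overlapped 9361 distinct peaks in GD15M_LM and 9085 in CD15M_CM, and 17.5% and 23.1% of them shared such a peak with another region. A peak of 8383 bp within SEPT9 in GD15M_LM held 6 regions, and a peak of 9182 bp within ZMIZ1 in CD15M_CM held 7. Regions that share a peak share its value in that group.

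Fold enrichments of different lists are not on a common scale, so each peak was ranked within its own list, with 100 for the strongest. A percentile still depends on which peaks its list holds, and the lists differ in size (GD15M_CM 79877 peaks, GD15M_LM 57010, CD15M_CM 82037). It is therefore a rank and not a common measure of strength. The regions had a median percentile of 46.8 (95% interval 45.4 to 48.0) among the GD15M_CM peaks. Among the GD15M_LM peaks it was 51.4 (50.3 to 52.1), and among the CD15M_CM peaks 63.9 (63.3 to 64.5). These intervals cover counting error over regions only, and not the spread between gilts. When each list was cut to its 57010 peaks of highest −log10 p, the medians were 43.0, 54.7 and 56.9 in the same order (6295 regions). CD15M_CM then lay much nearer to GD15M_LM than with the full lists. With the full lists, 12.4% of the regions were in the top 10% of the CD15M_CM list, against 5.18% in GD15M_CM and 4.59% in GD15M_LM. In all 3 lists at once, 356 regions (3.75%) were in the top 25%, 21 (0.221%) in the top 10%, and 256 (2.70%) in the bottom 25%. These shares were not counted over all common peaks. The ranks were only loosely alike between groups, with a Spearman correlation across regions of 0.158 between GD15M_CM and GD15M_LM, 0.234 between GD15M_CM and CD15M_CM and 0.238 between GD15M_LM and CD15M_CM. Over all 38708 common peaks, promoters included, it was 0.389 to 0.395.

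**Figure D1:**
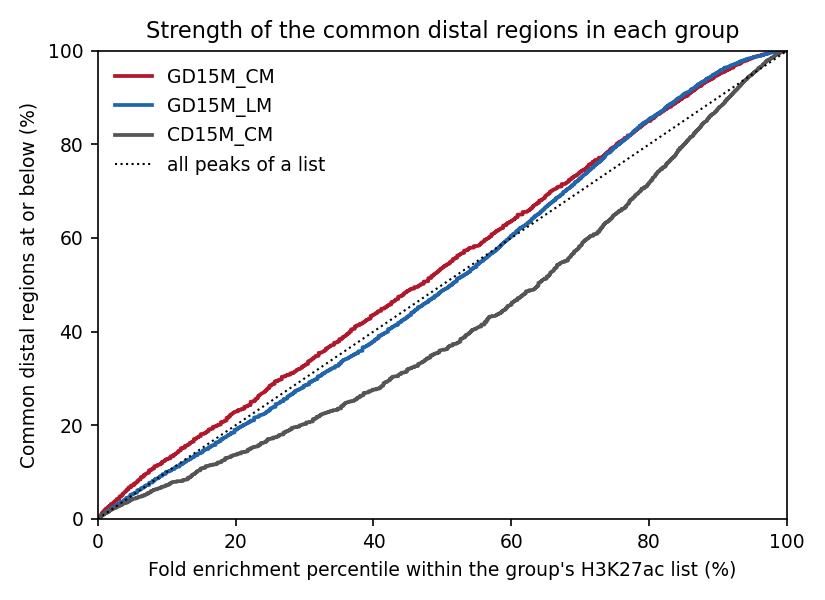
Cumulative share of the 9496 common distal regions (y axis, %) at or below each percentile of fold enrichment within the H3K27ac list of the group (x axis, %), with the dotted line for all peaks of a list. The curve of CD15M_CM runs below the other curves (median percentile 63.9), while those of GD15M_CM and GD15M_LM stay near the dotted line (46.8 and 51.4).

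Presence in every group thus left room for differences in rank. The percentile was at least 25 points higher in CD15M_CM than in GD15M_CM for 3301 regions (34.8%), compared with 28.1% of all common peaks, and at least 25 points higher in GD15M_CM for 1416 (14.9%, compared with 14.6%). Between the layers, 2529 regions (26.6%, compared with 23.2%) were that much higher in GD15M_LM and 2077 (21.9%, compared with 18.9%) in GD15M_CM. The percentile was at least 25 points higher in CD15M_CM than in GD15M_LM for 2951 regions (31.1%, compared with 24.5%) and lower for 1488 (15.7%, compared with 15.3%). These are rank differences between pooled lists and not tested changes. The authors ran a differential analysis that was not limited to these regions. In it, far fewer H3K27ac regions differed between GD15M_CM and CD15M_CM than between GD15M_CM and GD15M_LM.

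The direction between the layers depended on which list supplied the peaks. The median difference, GD15M_LM minus GD15M_CM, was 2.21 points with GD15M_CM peaks but -4.45 points when the same rule was applied to GD15M_LM peaks. It was -1.11 points when overlapping peaks of the 3 lists were joined into 8055 loci with the highest peak of each list. The median of CD15M_CM minus GD15M_CM was 11.2, 7.24 and 6.90 points with these choices, so CD15M_CM ranked higher under each of them. Whether this belongs to the cycle, to the 2 gilts or to the depth of their libraries cannot be told apart.

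The 10 regions with the highest rank in their weakest list were at or near genes of several kinds. A region of 3294 bp in YPEL2 (chr12:35610137-35613430) led, with fold enrichments of 7.89 in GD15M_CM, 8.94 in GD15M_LM and 7.31 in CD15M_CM, all at or above a percentile of 98.3. A region of 825 bp in SLC8A1, the sodium/calcium exchanger that removes calcium from muscle cells, had 6.31, 8.198 and 6.32 (chr3:100081159-100081983). It lay 175 kb from the nearest end of the gene. RBPMS, which encodes an RNA-binding protein of smooth muscle, held 2 of the 10 within 1 cluster. The first spanned 5730 bp (chr15:54559648-54565377) with 7.54, 7.81 and 6.05, and the second 719 bp (chr15:54609762-54610480) with 6.08, 7.04 and 7.76.

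Genes of the contractile cytoskeleton were next to 2 further regions of these 10. A region 54.8 kb from SVIL, which encodes the actin-binding protein supervillin, had fold enrichments of 6.31, 7.11 and 8.83 (chr10:41120306-41121546). A region 25.1 kb from SMTN, which encodes smoothelin of contractile smooth muscle, had 6.27, 6.81 and 6.14 (chr14:47853669-47854245). The remaining 4 lay in RAD51B (5.91, 7.001 and 7.02), in LHFPL2 (5.83, 8.601 and 6.65), in LOC110257572 (5.87, 7.11 and 6.01) and in the overlapping LOC110260285 and LOC102167557 (6.27, 8.63 and 7.57). All values are given in the order GD15M_CM, GD15M_LM and CD15M_CM.

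Among the regions that differed most in rank, some were small parts of a large peak in the other group. A region of 406 bp in INPP5A, which encodes an inositol phosphate phosphatase, had a fold enrichment of 2.06 in GD15M_CM and 8.58 in GD15M_LM, where the overlapping peak was 4952 bp long. A region of 247 bp in SPEG, which encodes a muscle kinase, had 2.14 and 8.14, with 4699 bp in GD15M_LM. GALNT2 followed with 2.06 and 7.85 (273 and 3444 bp). ZNF438 (2.10 and 7.77) and SMOC2 (2.10 and 7.58) were of similar length in both lists. In the opposite direction, a region of 3875 bp in CCDC12 had 7.02 in GD15M_CM and 2.16 in GD15M_LM, and regions in SLC8A1 (7.42 and 2.41), LOC110257431 (6.04 and 2.13), SPECC1L (6.08 and 2.39) and DOCK9 (7.11 and 2.56) followed. There the GD15M_CM peak was the longer one, with 3875 and 2378 bp in CCDC12, 2054 and 614 bp in LOC110257431 and 2112 and 644 bp in DOCK9. SLC8A1 thus held a region among the strongest of all groups and another among those that differed most between the layers.

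Between cyclic and pregnant circular muscle, the largest rank difference towards CD15M_CM was at a region 54.9 kb from OPTC. Its fold enrichment was 2.004 in GD15M_CM and 7.61 in CD15M_CM. PALLD, which encodes the actin-associated protein palladin, held a region with 2.12 and 7.25, which lay within a peak of 8149 bp in CD15M_CM. Regions in C14H12orf49 (2.12 and 7.24), MLXIP (2.23 and 7.41) and GALNT2 (2.06 and 6.59) came next. The largest rank difference towards GD15M_CM was 23.1 kb from LOC100624137, with 6.85 in GD15M_CM and 2.05 in CD15M_CM. Regions in UBE2H (7.04 and 2.30), GNG12 (6.38 and 2.15), LRRFIP1 (7.61 and 2.42) and ARHGEF3 (7.49 and 2.48) followed. ARHGEF3 encodes an activator of the GTPase RhoA and GNG12 a G-protein subunit.

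Most regions lay inside genes. RefSeq gene spans held 7497 of the 9496 regions (78.9%, Wilson 95% interval 78.1 to 79.8%), while 54.5% of the sequence more than 10 kb from gene ends lay inside genes. This gave 7.87 regions per Mb inside and 2.52 per Mb outside. Of all GD15M_CM H3K27ac peaks on these chromosomes, 65.5% lay inside genes. Other distal peaks had shares near that of the regions. The share was 74.9% for those without H3K4me3 in GD15M_CM alone and 80.0% for those shared with CD15M_CM but not GD15M_LM. It was 75.9% for common distal peaks with H3K4me3, so lying inside genes was not particular to the regions. Protein-coding genes held 7077 of the regions, and only lncRNA genes held 400. Regions inside and outside genes were of similar strength in GD15M_CM (median fold enrichment 3.42 and 3.38) and of similar length (577 and 537 bp). The median distance to the nearest gene end was 31.6 kb inside genes and 28.2 kb outside, and the farthest region was 408 kb away. The nearest H3K4me3 peak of any group was at a median of 14.5 kb, and 833 regions (8.77%) had one within 1 kb, although they overlapped none.

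The chromosomes differed in density. Chromosomes 12 and 14 held 9.74 and 9.67 regions per Mb of sequence more than 10 kb from gene ends, chromosome 8 held 2.68, and chromosome X held 0.577 (56 regions) against 5.73 on the autosomes. All distal peaks of the GD15M_CM list, counted without the other conditions, showed a similar order, with 42.5 per Mb on chromosome 12, 29.9 on chromosome 14, 11.0 on chromosome 8 and 3.24 on chromosome X. The regions made up 5.27% of all peaks on chromosome X and 12.1% on the autosomes.

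Host genes were few, and a small number held many regions. Of the 12120 RefSeq genes over 20 kb, the length needed to hold a point more than 10 kb from both ends, 1958 (16.2%) held at least 1 region, with a median of 2. The 166 genes with 10 or more held 3058 regions. RAD51B, a DNA repair gene, held the most with 62 regions, or 10.3 per 100 kb of its interior. Per 100 kb, COL4A2 (33.6), ZMIZ1 (29.7) and TNS1 (26.4) were the densest of the 10 leading hosts, and KCNMA1 (6.28) the sparsest.

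The 10 leading hosts included several genes of muscle and matrix. CACNA1C, the L-type calcium channel that admits calcium for contraction, held 47 regions, with fold enrichments of 2.01 to 5.09 in GD15M_CM (median 3.23), 2.46 to 8.86 in GD15M_LM (median 4.88) and 2.71 to 6.53 in CD15M_CM (median 4.05). KCNMA1, the large-conductance potassium channel that dampens contraction, held 44, with medians of 3.78, 4.27 and 3.96. TNS1, which encodes the focal adhesion protein tensin, held 43, with medians of 2.999, 4.28 and 3.84. COL4A2, a chain of basement membrane collagen IV, held 40, with medians of 3.10, 4.15 and 3.73. The remaining hosts were ZMIZ1 (59 regions), a coregulator of transcription, CUX1 (45), a homeobox factor, MICAL2 (43), an actin-oxidizing enzyme that acts on the SRF pathway, DOCK9 (42), an activator of the GTPase CDC42, and GSE1 (40).

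These hosts did not rank alike in the groups. In CACNA1C, the median percentile was 39.0 in GD15M_CM, 75.5 in GD15M_LM and 68.5 in CD15M_CM, and 24 of 47 regions were at least 25 points higher in GD15M_LM than in GD15M_CM and 5 lower, compared with 26.6% and 21.9% of all regions. With joined loci, the order in CACNA1C was the same (49.3, 75.8 and 67.3 over 26 loci), and so was that of COL4A2 (42.3, 61.3 and 59.2 over 21 loci, compared with 32.6, 60.5 and 58.5). With GD15M_LM peaks, CACNA1C still ranked higher in GD15M_LM (55.5) than in GD15M_CM (51.0), but CD15M_CM was highest (70.7). RAD51B and DOCK9 ranked lower in GD15M_LM than in GD15M_CM with GD15M_CM peaks (63.1 and 71.5 for RAD51B, 46.6 and 61.8 for DOCK9), with joined loci and with GD15M_LM peaks. MICAL2 turned from higher in GD15M_LM (57.1 and 39.6) to lower (54.1 and 57.5) with joined loci, and ZMIZ1 and CUX1 turned with GD15M_LM peaks (47.0 and 62.5 for ZMIZ1, 54.1 and 55.4 for CUX1). KCNMA1 turned from 63.5 in GD15M_LM and 61.5 in GD15M_CM to 64.8 and 65.04 with joined loci, and GSE1 from 29.05 and 28.9 to 35.2 and 36.7. TNS1 stayed higher in GD15M_LM, but the values went from 63.7 and 28.5 to 53.8 and 49.3. Of the 166 genes with 10 or more regions, CD15M_CM had the highest median percentile in 112, GD15M_LM in 34 and GD15M_CM in 20. Over all 9496 regions, the percentile was highest in CD15M_CM for 47.6%, in GD15M_LM for 27.3% and in GD15M_CM for 25.2%. These shares count single regions and those of the genes count medians, so they cannot be compared directly. The 166 genes were counted with GD15M_CM peaks only, and not with joined loci, GD15M_LM peaks or lists of equal size.

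**Figure D2:**
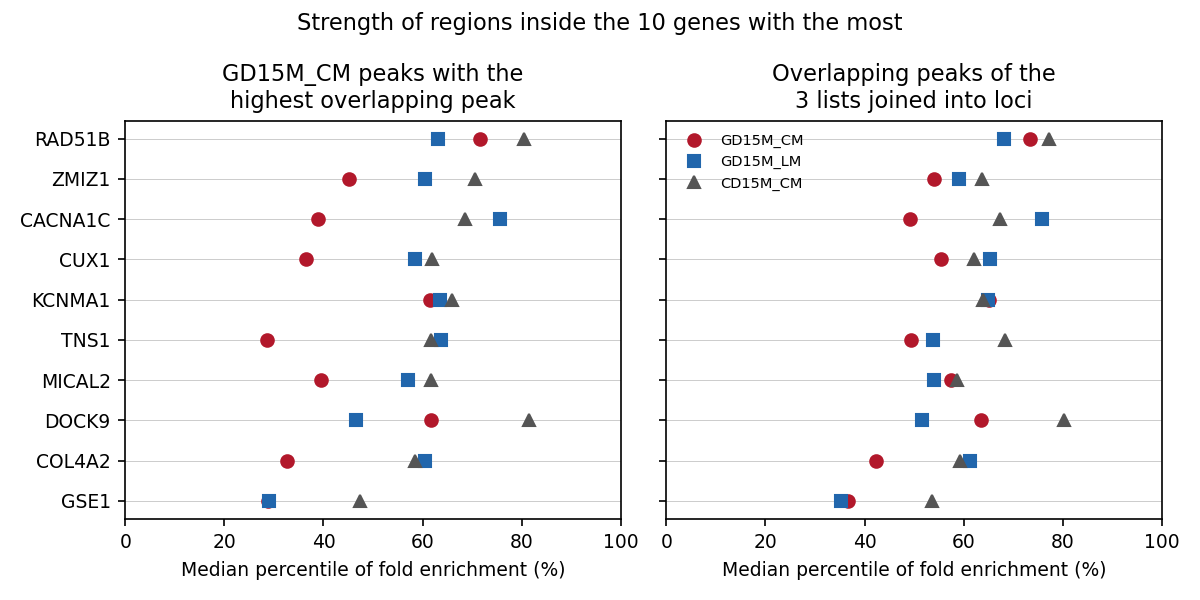
Median percentile of fold enrichment (x axis, %) of the regions inside each of the 10 genes with the most regions, in GD15M_CM, GD15M_LM and CD15M_CM, with GD15M_CM peaks (left) and with joined loci (right). GD15M_CM lies far to the left of the other groups in CACNA1C and COL4A2 in both panels, and GD15M_LM lies to its left in RAD51B and DOCK9.

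Among the 1999 regions outside genes, SCARB1, which encodes a lipoprotein receptor that supplies cholesterol, and BANP were each the nearest gene of 15. The regions nearest to SCARB1 lay 13.6 to 120 kb away, with fold enrichments of 2.29 to 6.30 in GD15M_CM (median 3.78), 2.49 to 4.88 in GD15M_LM (median 3.78) and 2.24 to 4.497 in CD15M_CM (median 3.47). MBP, RGS3 and SYK were nearest to 14 each, LOC102159588 to 11, and AUH, CD180 and LOC100515775 to 10 each. The regions nearest to MBP ranged from 2.45 to 5.36 in GD15M_CM, from 2.99 to 5.92 in GD15M_LM and from 2.202 to 6.72 in CD15M_CM. The nearest gene is a matter of position and need not be the gene a region acts on.

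The promoters of host genes more often carried H3K4me3, which the rule did not use at gene ends. A peak of H3K4me3 lay within 3 kb of an end in all 3 groups for 74.7% of the 7776 protein-coding genes that had room for a region but held none (Wilson 95% interval 73.8 to 75.7%). The share was 84.5% with 1 to 2 regions (82.2 to 86.6%, n = 1046), 89.5% with 3 to 9 (86.8 to 91.8%, n = 583) and 90% with 10 or more (84.4 to 93.8%, n = 160). Among genes with more than 150 kb of interior, the share rose from 68.2% without a region to 91.6% with 10 or more. With 50 to 150 kb of interior, it was 75.5% without a region, 83.8% with 1 to 2 and 90.7% with 3 to 9. It was 87.7% with 10 or more (n = 73), so the rise was not steady in that class. Strand was not used, so the window also takes in the 3′ ends of genes.

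**Figure D3:**
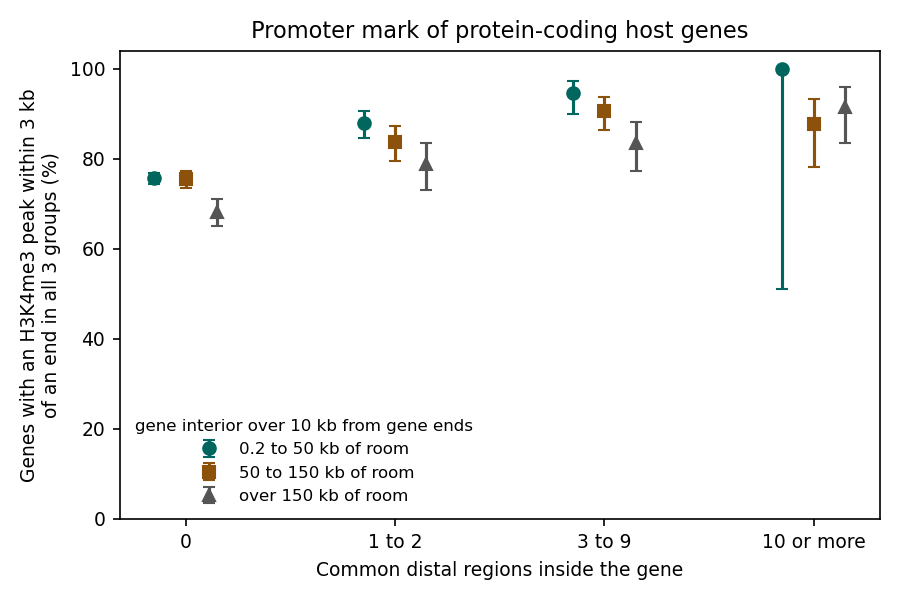
Share of protein-coding genes with an H3K4me3 peak within 3 kb of an end in all 3 groups (y axis, %) by the number of common distal regions inside the gene (x axis), in 3 classes of gene interior, with Wilson 95% intervals as bars. In each class the genes without a region have the lowest share, and the class of shortest interior holds only 4 genes with 10 or more regions.

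The gene lists differed in how many of their genes held a region. Of the genes over 20 kb, 12 of 20 of the contractile apparatus (60%), 8 of 13 regulators around myocardin, SRF, MEF2 and TEAD (61.5%), 11 of 17 uterine mesenchyme factors (64.7%), and 21 of 28 genes of matrix and integrins (75%) held at least 1 region, compared with 16.2% of all. Among genes over 20 kb, list genes were longer than genes at large (median 103 kb for the contractile list and 55.7 kb for all), so densities per Mb of gene interior stand beside the shares. Contractile genes held 58.3 regions per Mb, matrix genes 41.7, the myocardin and SRF list 32.4, TGF-beta and BMP signalling 26.9, and calcium and potassium handling 20.7, compared with 7.84 over all genes. Steroid receptors (3.45 per Mb) and the dystrophin complex and caveolae list (1.93 per Mb) lay below that value. These densities pool the genes of a list, and a few hosts weigh heavily in them. CACNA1C held 47 and KCNMA1 44 of the 165 calcium and potassium regions, and TNS1 43 of the 141 contractile regions. The median gene with interior held 3.17 regions per 100 kb in the contractile list and 2.81 in the myocardin and SRF list. It held 0.98 in the matrix list and 0.39 in the calcium and potassium list. The median was 0 for TGF-beta and BMP signalling and over all genes. Of the 12 long neuronal genes, given as a contrast, 5 (41.7%) held a region, a share above that of all genes, but their density was 0.495 per Mb. The share alone therefore did not set the lists of muscle biology apart from long genes of another tissue.

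**Figure D4:**
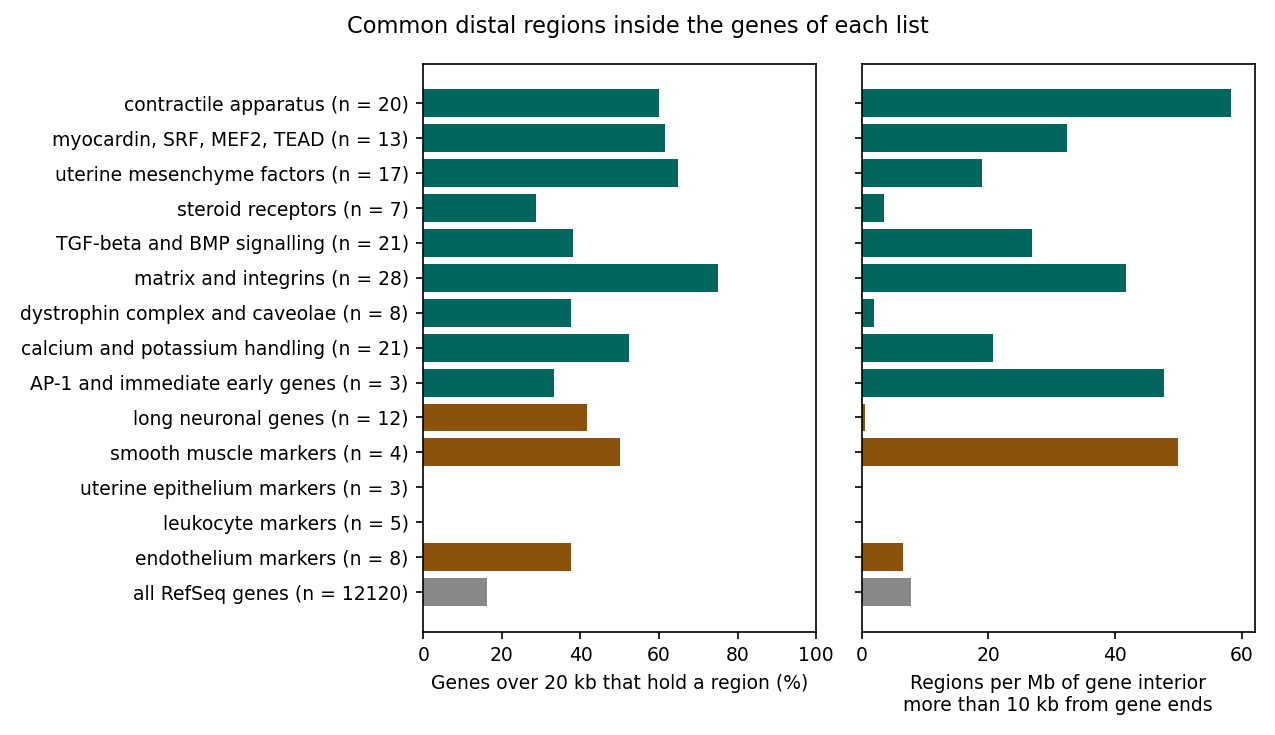
Share of genes over 20 kb that hold a common distal region (left, x axis, %) and regions per Mb of gene interior (right, x axis) for each gene list, with n the number of genes over 20 kb, markers and neuronal genes in brown and all RefSeq genes in grey. Pooled over the genes of each list, the contractile list reaches 58.3 regions per Mb and the matrix list 41.7, against 7.84 over all genes. The neuronal list reaches 41.7% of its genes but 0.495 regions per Mb.

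Among contractile genes, TNS1 held 43 regions, ACTN1 19, MYLK 13 and LPP 10. MYLK encodes the myosin light chain kinase that starts smooth muscle contraction, and its regions had fold enrichments of 1.96 to 4.30 in GD15M_CM, 3.64 to 5.37 in GD15M_LM and 2.76 to 5.62 in CD15M_CM. MYH11, the smooth muscle myosin heavy chain, held 6 regions with medians of 2.802, 3.43 and 3.24. CALD1 and SYNPO2 held 9 each, LDB3 3 and PDLIM5 2. SMTN held none but was nearest to 8, between 11.6 and 33.9 kb away, with fold enrichments of 2.92 to 6.27 in GD15M_CM, 3.17 to 6.81 in GD15M_LM and 3.16 to 6.14 in CD15M_CM. ACTG2, FLNA, FLNC, PDLIM3 and SORBS2 held no region, although only SORBS2, with 285 kb, had more than 10.5 kb of interior. LMOD1 and SYNM had no interior more than 10 kb from all gene ends, so they could hold none.

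The regions of contractile genes ranked higher in GD15M_LM and CD15M_CM than in GD15M_CM. Their median percentile was 41.6 in GD15M_CM, 60.3 in GD15M_LM and 62.1 in CD15M_CM (141 regions). Over all regions it was 46.8, 51.4 and 63.9, so the value in CD15M_CM was near that of all regions. At least 25 points higher in CD15M_CM than in GD15M_CM were 61 regions (43.3%, compared with 34.8% of all regions). With joined loci this share was 31.1%, compared with 28.3%. At least 25 points higher in GD15M_LM were 51 regions (36.2%, compared with 26.6% of all regions) and 22 were lower (15.6%, compared with 21.9%). With joined loci, 24 of 106 were higher in GD15M_LM (22.6%, compared with 21.5%) and 16 lower (15.1%, compared with 23.6%). With GD15M_LM peaks, 31 of 129 were higher in GD15M_LM (24.0%, compared with 19.9%) and 29 lower (22.5%, compared with 28.4%). The regions of 1 gene share their surroundings, and TNS1 alone held 43 of the 141. Other lists went either way with GD15M_CM peaks. The myocardin and SRF list had medians of 52.6 in GD15M_CM and 47.6 in GD15M_LM (43 regions). TGF-beta and BMP signalling had 60.9 and 46.4 (61), and dystrophin complex and caveolae 90.3 and 59.0 (9). With joined loci these lists stayed lower in GD15M_LM. Uterine mesenchyme factors (53.2 and 59.9) and the calcium and potassium list (51.5 and 61.4) were higher in GD15M_LM.

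Matrix genes were led by the collagens. COL4A2 held 40 regions, COL4A1 and COL5A1 28 each, THSD4 20, ITGA9 15 and COL6A3 12, and LAMA4, LAMC1 and ELN held 2 to 7. The regions of COL6A3, a chain of collagen VI, had fold enrichments of 2.58 to 4.40 in GD15M_CM (median 2.99), 2.64 to 7.05 in GD15M_LM (median 5.10) and 2.53 to 4.86 in CD15M_CM (median 3.90). Of these 12 regions, 7 were at least 25 points higher in GD15M_LM than in GD15M_CM and 0 were lower, compared with 26.6% and 21.9% of all regions. Over the whole matrix list, the median percentile was 35.5 in GD15M_CM, 56.4 in GD15M_LM and 56.1 in CD15M_CM (166 regions). Over all regions it was 46.8, 51.4 and 63.9. At least 25 points higher in GD15M_LM were 67 of 166 regions (40.4%, compared with 26.6% of all regions) and 22 were lower (13.3%, compared with 21.9%). With joined loci 38 of 120 were higher (31.7%, compared with 21.5%) and 22 lower (18.3%, compared with 23.6%). With GD15M_LM peaks, 44 of 133 were higher (33.1%, compared with 19.9%) and 24 lower (18.05%, compared with 28.4%), so the direction of the pooled counts stayed. Regions of 1 gene or of adjoining genes share their surroundings, and a few genes weigh heavily here. With GD15M_CM peaks, COL4A2 held 22 of the 67 higher regions, the adjoining COL4A1 12 and COL5A1 11. ITGA8, an integrin of smooth muscle, held 1 region and was nearest to 6, which lay 25.6 to 50.2 kb away.

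Of the calcium and potassium list, 11 of 21 genes held regions, and each held 2 or more. Beside CACNA1C and KCNMA1, ITPR1, the inositol trisphosphate receptor that releases stored calcium, held 22 regions with median fold enrichments of 3.30, 3.94 and 3.75. ATP2B4, a calcium pump of the plasma membrane, held 17 (4.02, 3.84 and 5.16), and SLC8A1 held 12 (3.75, 3.86 and 5.14). ANO1, a calcium-activated chloride channel, held 7, PDE5A 5, CACNB2 4, CACNA1D 3, and ITPR2 and PLCB4 2 each. RYR2, RYR3, PRKG1, TRPC4 and 6 others held none.

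Among regulators, TEAD1 held 12 regions, MRTFA (MKL1) and ELK3 8 each, MRTFB (MKL2) 7, and MEF2D and WWTR1 3 each. MRTFA and MRTFB are cofactors of SRF that respond to actin. The 8 regions of MRTFA had median percentiles of 85.4 (GD15M_CM), 71.4 (GD15M_LM) and 90.6 (CD15M_CM), compared with 46.8, 51.4 and 63.9 over all regions. For the 7 regions of MRTFB they were 88.1, 56.4 and 81.2, so the value in GD15M_LM was near that of all regions. Of these 7, 4 were at least 25 points lower in GD15M_LM than in GD15M_CM. MYOCD itself held none, and KLF4, an antagonist of the smooth muscle programme, was nearest to 6. Of uterine mesenchyme factors, ZFHX3 held 7 regions, TWIST2 4, NFIA 3, and MEIS1, TSHZ1, TSHZ2 and TSHZ3 2 each. JUN, of the AP-1 family, was nearest to 8 regions 42.4 to 138 kb away, and FOSL2 held 2.

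Of TGF-beta and BMP signalling, 8 of 21 genes over 20 kb held regions. The receptors TGFBR3 (15) and TGFBR2 (14) and the signal carrier SMAD3 (12) held most, followed by LTBP2 (8), SMAD6 and LTBP1 (4 each) and TGFB2 (3). SMAD3 had median percentiles of 64.2 in GD15M_CM, 34.4 in GD15M_LM and 64.2 in CD15M_CM. Steroid receptors held few: ESR1, the estrogen receptor, held 3 regions and PGR, the progesterone receptor, held 1, while ESR2, NR3C1, NR3C2 and VDR held none. Of dystrophin complex and caveolae genes, 3 of 8 held regions, at 1.93 per Mb. UTRN (5 regions) had a median fold enrichment of 5.72 in GD15M_CM, 4.27 in GD15M_LM and 3.09 in CD15M_CM, and SNTB1 (3 regions) had 5.43, 4.10 and 3.39. DMD, dystrophin itself, held none.

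Markers of cell types were described in the same way. Of the 8 smooth muscle markers, all had H3K4me3 within 3 kb of an end in each group, and 2 of the 4 over 20 kb held regions (19 in MYH11 and MYLK). Of the endothelial markers, 3 of 8 (37.5%, compared with 16.2% of all genes over 20 kb) held 4 regions, of which VWF held 2, at 6.57 per Mb compared with 7.84, and 6 of 8 had H3K4me3 at an end in each group. None of the 3 epithelial and 5 leukocyte markers over 20 kb held any, which at a share of 16.2% over all genes says little. Epithelial markers nevertheless had H3K4me3 at an end for 8 of 8 in GD15M_CM, 7 in GD15M_LM and 8 in CD15M_CM, and H3K27ac for 8, 5 and 8. Leukocyte markers had H3K4me3 for 7, 8 and 8 of 8 and H3K27ac for 2, 3 and 3. The part of these cells in the regions was not tested.

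Many regions lay close to another region. When regions closer than the gap commonly used to stitch H3K27ac peaks (between 12 and 13 kb) were joined, 6819 (71.8%, Wilson 95% interval 70.9 to 72.7%) fell into 1789 clusters of 2 or more, with a median of 3 regions and a median span of 7.58 kb, and 2677 stood alone. The 92 clusters of 10 or more held 1437 regions, 94.99% of them inside genes, compared with 70.3% of the single regions. In CD15M_CM the median percentile was 59.9 for single regions and 68.6 in clusters of 10 or more, in GD15M_LM 47.6 and 57.9, and in GD15M_CM 48.0 and 48.4. Regions of a cluster can share a wide peak of another group, so their values are not independent of each other. The median gap between neighbouring regions was 9.95 kb, shorter than the stitching gap. With peaks less than 1 kb apart merged, 51.7% of regions were in clusters. The share in clusters was not counted for other H3K27ac peaks, so whether the regions cluster more than those is not known.

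The 5 largest clusters each lay within a single gene. The largest held 41 regions in TNS1 (chr15:119962094-120068155, 106 kb), of which the regions covered 30.2%. Counting all H3K27ac peaks in this span, 49.7% was covered in GD15M_CM, 59.5% in GD15M_LM and 70.1% in CD15M_CM, while H3K4me3 peaks covered 1.12%, 8.25% and 4.89%. Median fold enrichments of the 41 regions were 2.999 in GD15M_CM, 4.55 in GD15M_LM and 3.84 in CD15M_CM. Next came clusters in ZNF516 (36 regions, chr1:147997822-148086399), a zinc finger gene, with medians of 4.12, 4.28 and 4.04, and in ZMIZ1 (34 regions, chr14:81491671-81566284), with medians of 3.41, 4.08 and 4.21. CAPZB, which encodes an actin-capping subunit, held 34 (chr6:77793760-77900700) with 3.56, 3.96 and 4.74, and CUX1 held 33 (chr3:9368458-9465549) with 3.09, 4.08 and 3.86. No H3K4me3 peak of any list lay in the ZMIZ1 cluster, and H3K4me3 covered at most 3.66% of the others apart from TNS1.

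**Figure D5:**
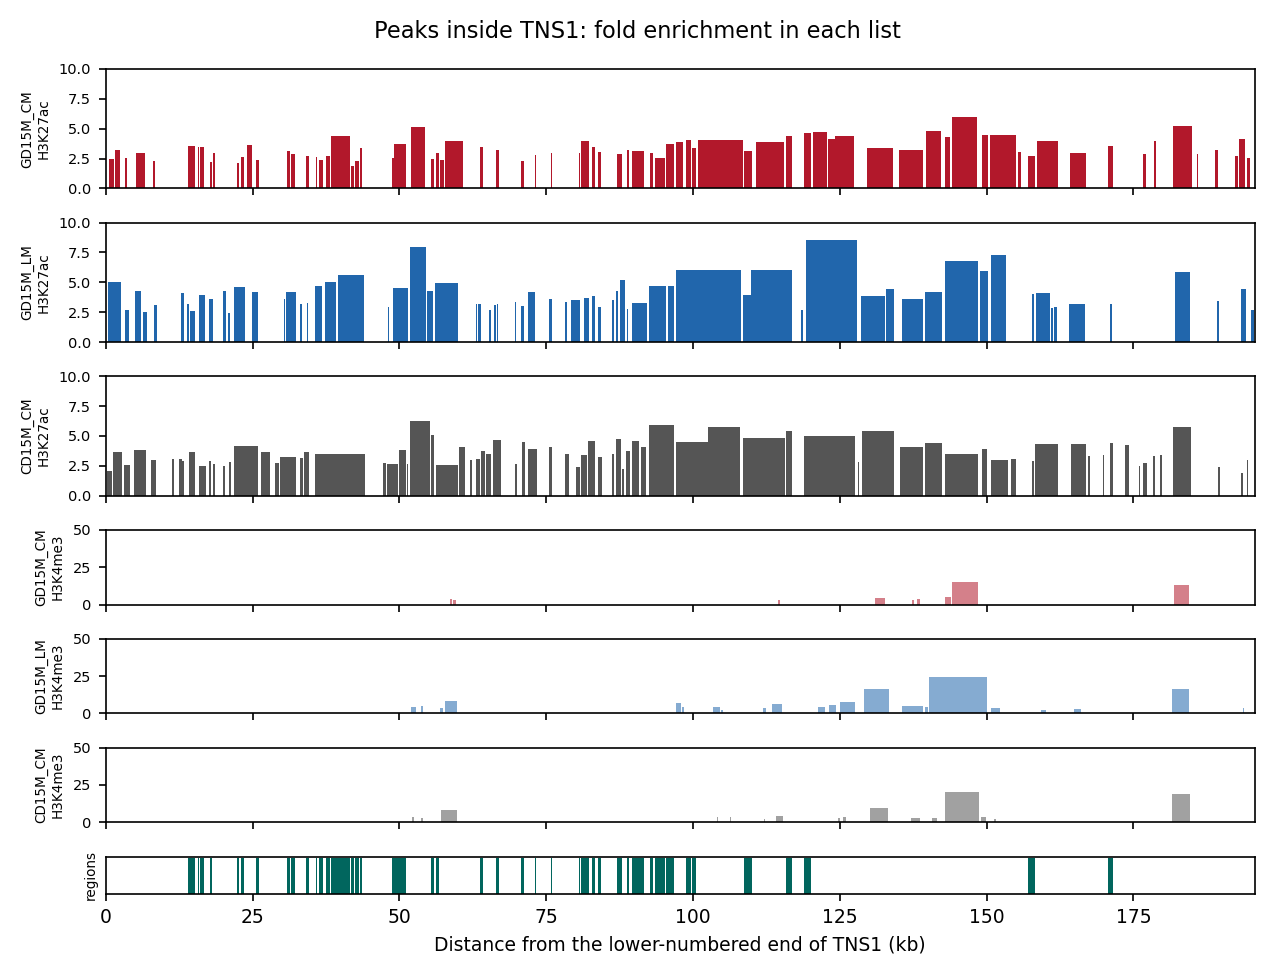
Fold enrichment (y axes) of every H3K27ac and H3K4me3 peak inside TNS1 in the 3 groups by distance from its lower-numbered end (x axis, kb), with the common distal regions in green in the lowest panel. H3K27ac covers much of the gene in each group, the regions lie mostly in its lower-numbered part, and the highest H3K4me3 peaks lie in its higher-numbered part.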

How the data were processed

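H3K27ac, H3K4me3 and IgG were profiled by CUT&Tag in 18 libraries, grouped by their titles. The authors mapped reads to Sus scrofa 11.1 with BWA (0.7.17-r1188), filtered them with SAMtools (1.9) and Picard (2.8.3), pooled both gilts and called peaks with MACS2 (2.2.6). The 6 deposited lists give per peak its length in bp, the fold enrichment, a ratio of signal over background whose control and scaling are not given in the sources used here, and a −log10 p-value. The header of the latter was unreadable, and it was identified by its values. A further score deposited by the authors, inferred to be the −log10 q-value, was not used. The lists hold no read counts, and the read numbers of the libraries in the study's records were not used here, so no value has a depth beside it.

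Regions were selected as stated above against the spans of 28073 RefSeq genes (Sscrofa11.1, without strand). The value in another list was that of its highest overlapping peak. Regions closer than the usual stitching gap (between 12 and 13 kb) formed clusters. Shares have Wilson 95% intervals and medians exact binomial intervals, for counting error only. No test was run. Gene lists matched by symbol (MRTFA and MRTFB as MKL1 and MKL2). Named were the 10 hosts and 10 nearest genes with most regions, the 5 largest clusters, the 10 strongest regions by lowest percentile, the 5 largest rank differences in each direction, the 3 longest regions, 2 regions on either side of the distance limit, and list genes with 2 or more regions. Some genes that this rule names are not reported here. List genes with fewer regions, or only nearest to some, were named after their values were seen. The regions and lists were chosen with earlier results of these data known. Python 3.11.15, NumPy 2.4.6, pandas 2.3.3, SciPy 1.17.1 and Matplotlib 3.10.9 were used. The code was tested on simulated data (1200 regions, 165 selected, 0 wrong). Motifs and sequences were not analysed here, as no genome was used. Alternatives changed the threshold, overlap, distance, genes, merging, supplying list, ranking, stitching gap and rank difference, and joining into loci was added after seeing the data.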

Additional observations from a re-analysis of the deposited data

How the results depend on the processing

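With only peaks whose fold enrichment reached 5 and whose −log10 p reached 10, 71 regions were left, 83.1% inside genes and 11.3% in clusters, with a median length of 1338 bp, 4 list genes, median percentiles among the remaining peaks of 36.9 in GD15M_CM, 42.2 in GD15M_LM and 57.8 in CD15M_CM, 42.3% differing by at least 25 points between the layers, and median differences of 5.87 (GD15M_LM minus GD15M_CM) and 18.2 points (CD15M_CM minus GD15M_CM). With at least 50% of the peak covered, the length was 536 bp, 66.6% were in clusters, the percentiles were 57.1 in GD15M_LM and 66.4 in CD15M_CM, and the differences 5.77 and 13.5. At more than 20 kb from gene ends, 80.1% were inside genes, with percentiles of 53.1 in GD15M_LM and 65.1 in CD15M_CM. With protein-coding genes only, 70.6% were inside genes. With peaks less than 1 kb apart merged, 6161 regions were found, 76.9% inside genes and 51.7% in clusters, of 885 bp, with percentiles of 46.5 in GD15M_LM and 61.3 in CD15M_CM, 46.6% (layers) and 46.7% (cycle and pregnancy) differing, and a difference between the layers of 0.25. With the 57010 peaks of highest −log10 p from each list, 6295 regions were found, 79.8% inside genes and 64.9% in clusters, of 674 bp, with percentiles of 43.0, 54.7 and 56.9, 47.8% differing between CD15M_CM and GD15M_CM, and differences of 6.97 and 8.52.

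The direction between the layers reversed under 4 alternatives, with a median of GD15M_LM minus GD15M_CM of -4.45 with peaks of GD15M_LM, -1.37 with peaks of CD15M_CM, -1.001 when ranked by −log10 p and -1.11 with joined loci. CD15M_CM minus GD15M_CM stayed positive under every alternative run, and moved to 7.24, 5.11 and 6.90 with the GD15M_LM peaks, the CD15M_CM peaks and the loci. Peaks of GD15M_LM gave 70.2% in clusters, percentiles of 51.5 in GD15M_CM and 46.0 in GD15M_LM, and 47.4% differing between CD15M_CM and GD15M_CM. Peaks of CD15M_CM gave 78.0% inside genes, 67.3% in clusters, 841 bp, percentiles of 51.1 in GD15M_CM and 59.1 in CD15M_CM, and 47.0% and 47.4% differing. Ranking by −log10 p gave percentiles of 52.5 in GD15M_CM and 68.9 in CD15M_CM, with 46.2% and 45.6% differing. Joined loci gave 53.2 in GD15M_CM and 52.4 in GD15M_LM, with 45.0% and 44.8% differing. A stitching gap of 5 or 25 kb put 60.8% or 78.1% in clusters. A difference of at least 10 points was found for 76.7% (layers) and 76.8% (cycle and pregnancy). The cause of these shifts was not tested. The other 57 values stayed within their counting interval or, for counts, within 1.5 times.

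No paired analysis was possible because each list pools both gilts. For the same reason leaving out a gilt was not run, and the motif alternative was not run without a genome. The pooled lists limit every difference between groups to a description of those lists, and the effect of library depth on them was not tested.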
